A study of Mus musculus with 6 samples.

Results

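The AP-1 factors described here are 9 genes, Fos, Fosb, Fosl1, Fosl2, Jun, Junb, Jund, Atf3 and Batf, taken by symbol from the 33924 genes of a read count table. The table holds 3 groups of 2 libraries each. Leukemia 1 and leukemia 92 are primary leukemias of the Mll-Af4/N-RasG12D genotype, a mouse model of acute lymphoblastic leukemia, collected from bone marrow. Mll-Af4 donors aged 6 to 8 weeks gave lineage-depleted marrow cells bearing c-Kit and Sca1, which were kept in lymphoid culture, given a retrovirus with Cre and TdTomato, then a retrovirus with N-RasG12D, and injected into lethally irradiated mice beside wild-type helper marrow. The mice could therefore also hold blood cells of the helper marrow and of the host, and the labels describe no sort of the leukemia cells before RNA was taken. Only 2 leukemias were measured. The third group is pro-B cells, an early B-lineage stage, from wild-type marrow (B220+ CD43+ IgM-), which carry neither the fusion nor the retroviruses; no age is given for them apart from the shared protocol. The labels number 2 replicates in each group without saying whether they were separate animals, so p-values may measure only technical spread.

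AP-1 is a transcription factor made of pairs of basic leucine zipper proteins. Fos proteins need a partner, most often a Jun protein, to bind DNA, while Jun proteins can also pair with each other. Fos, Fosb, Jun, Junb and Atf3 are classical early response genes: RAS to ERK signalling acts on the Fos promoter through SRF and its ETS partners, and JNK acts on the Jun protein. Atf3 is a stress-induced member that often represses, and Batf pairs with Jun proteins in lymphocytes, where it cooperates with IRF4 and IRF8.

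The libraries held 22153444 to 27444759 gene counts, and 3 counts in 1 library correspond to 0.109 to 0.135 CPM (read counts scaled to one common library size). Levels below are CPM scaled by TMM, a normalisation that balances composition between libraries. The libraries of leukemia 1 stood apart from each other: the SD of their log2 differences over 15280 genes was 1.33, against 0.41 for leukemia 92 and 0.36 for pro-B cells. The 20 granulocyte and monocyte markers summed to 19189 CPM in leukemia 1 replicate 2 but 654 CPM in its replicate 1, 3306 and 2488 CPM for leukemia 92, and 628 and 636 CPM in pro-B cells; 4 of the 20 were called higher in leukemia and none was at 0 in all libraries. The 15 pro-B markers summed to 5663 to 6895 CPM in leukemia and 5665 to 6607 CPM in pro-B cells, although Dntt was at 0.00 to 1.11 CPM in leukemia against 604 and 969 CPM. The 15 T and NK markers summed to 9.75 to 81.0 CPM in leukemia against 690 CPM in each pro-B library. The 10 plasmacytoid dendritic cell markers summed to 963 to 1472 CPM against 3839 and 4351 CPM. Irf8 held most of that leukemia sum, at 721 to 1230 CPM against 1271 and 1420 CPM. Of the 10, 6 were called lower in leukemia, 0 higher and 4 did not pass, against 10.7% lower and 9.54% higher of all genes. Siglech was at 15.0 to 33.9 CPM against 1368 and 1544 CPM, and Ccr9 at 0.325 to 1.92 CPM against 138 and 178 CPM. The 11 mature B-cell markers summed to 1421 to 5643 CPM against 1846 and 2270 CPM. The part of these differences in the results below was not tested.

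The members differ in the DNA before their starts. The 120 bases before the annotated start are shown for the 6 that hold a motif marked in capitals. Fosl2 and Jund hold none of these motifs in the 250 bases searched and are not shown. The sequences are RefSeq sequences of build GRCm38.p6, read 5′ to 3′ on the gene's strand, and 8 of the 9 members matched the table. Capitals mark TGACG (on either strand, the core of the cAMP and ATF response element), the ATF-type octamer TTACGTCA that contains it in Atf3, the related octamer TGACATCA of Jun, and TATAAA.
Fos: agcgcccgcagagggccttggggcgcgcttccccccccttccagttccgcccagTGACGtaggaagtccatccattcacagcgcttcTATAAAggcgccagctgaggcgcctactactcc
Fosb: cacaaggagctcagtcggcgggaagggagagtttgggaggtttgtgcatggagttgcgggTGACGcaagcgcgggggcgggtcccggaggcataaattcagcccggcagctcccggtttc
Junb: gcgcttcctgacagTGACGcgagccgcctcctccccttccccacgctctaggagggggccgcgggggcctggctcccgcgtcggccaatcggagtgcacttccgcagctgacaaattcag
Atf3: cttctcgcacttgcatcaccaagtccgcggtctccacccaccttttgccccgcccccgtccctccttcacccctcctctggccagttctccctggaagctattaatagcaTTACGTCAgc
Batf: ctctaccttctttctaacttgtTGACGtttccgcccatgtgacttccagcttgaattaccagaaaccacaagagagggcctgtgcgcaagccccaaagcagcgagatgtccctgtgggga
Jun: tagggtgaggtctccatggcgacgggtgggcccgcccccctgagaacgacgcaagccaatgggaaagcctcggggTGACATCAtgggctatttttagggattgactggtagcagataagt
The windows lie at chr12:85473770-85473889 (plus strand) for Fos, chr7:19310046-19310165 (minus strand) for Fosb, chr8:84978749-84978868 (minus strand) for Junb, chr1:191183334-191183453 (minus strand) for Atf3, chr12:85686600-85686719 (plus strand) for Batf and chr4:95052223-95052342 (minus strand) for Jun. Over the 250 bases before the start, TGACG stood in 5 of 8 members (Fos, Fosb, Junb, Atf3 and Batf) and in 17.8% of 32851 mouse windows of that length. TTACGTCA, 10 to 3 bases before the start of Atf3, stood in 0.448% of windows, and TGACATCA, 45 to 38 bases before that of Jun, in 2.93%. These motifs were chosen after the sequences were read. All motifs were searched on both strands, and a match to TTACGTCA or TGACGTCA also counts for TGACG. The full TGACGTCA (1.55% of windows), the AP-1 site TGACTCA or TGAGTCA (4.46%) and the CArG box bound by SRF (1.47%) matched no member window. Bases outside these 250, such as those further upstream, were not searched. TATAAA matched 1 of 8 (Fos; 12.4% of windows), CCAAT, the NF-Y box, 2 of 8 (Jun and Junb; 33.8%) and GGGCGG, the GC box bound by SP1, 6 of 8 (32.7%).

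Leukemia was compared with pro-B cells to ask how the AP-1 genes stand in a leukemia with activated N-Ras. The 2 libraries of a leukemia were added together, so that 2 leukemias faced 2 pro-B libraries. With edgeR's quasi-likelihood test, 4 of the 8 members with enough counts rose in leukemia, Atf3, Fosb, Fos and Batf, and 0 fell. Over all 15280 genes tested, edgeR called 9.54% higher, 10.7% lower and 20.2% either way. The unadjusted p of all 8 was under 0.05, as it was for 38.8% of all genes. DESeq2 put 7 higher and 1 lower, against 15.3% and 15.9% of all genes. The members' median log2 change was 1.52, against 0.02 over all genes. In bulk RNA, fewer cells of a type and less RNA per cell cannot be told apart. The 4 leukemia libraries all lay above both pro-B libraries for 5 of the 8 (Fosb, Fosl2, Jund, Atf3 and Batf), as they did for 23.4% of all genes, and below both for 0 of the 8, against 27.3% of all genes. In leukemia 1 replicate 1 alone, Fos, Jun and Junb were not above both pro-B libraries, while 45.7% of all genes were. Those 5 members were above both there, which follows from their choice, since that library is 1 of the 4. Of the 20 granulocyte and monocyte markers, 13 were below both pro-B libraries in that library and 6 above, among them Csf1r (138 against 3.55 and 5.26 CPM), Fcgr3 (25.8 against 4.96 and 5.61 CPM) and Itgam (177 against 77.3 and 92.5 CPM). Their part in the members' levels was not tested.

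**Figure D1:**
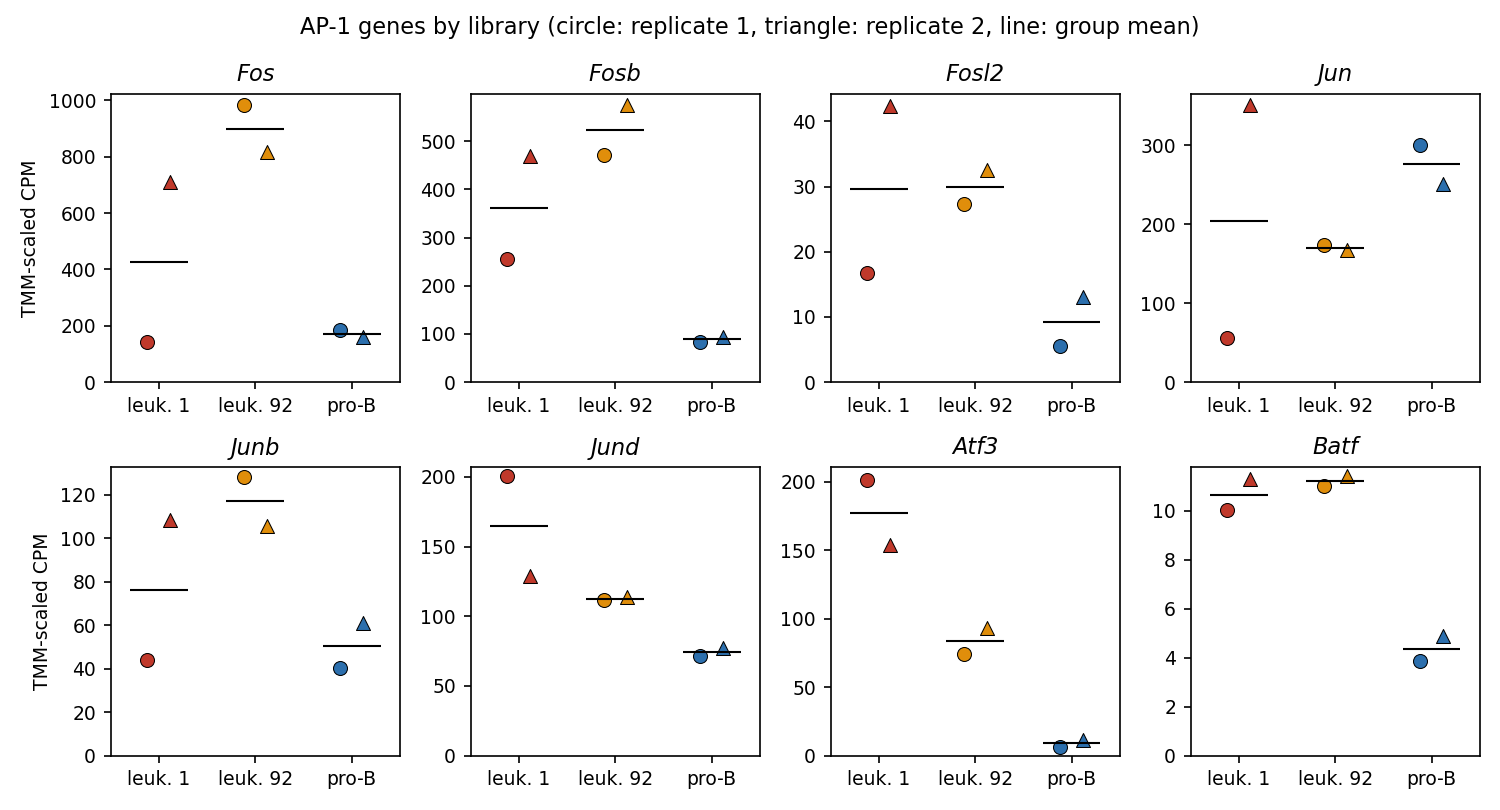
TMM-scaled CPM of 8 AP-1 genes in each of 6 libraries; circles are replicate 1, triangles replicate 2, and lines the group means. Atf3 stands at 74.4 to 201 CPM in the leukemias against 6.26 to 11.7 CPM in the controls, while Fos and Jun are low in leukemia 1 replicate 1 (141 and 56.2 CPM).

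Fos, the founding member, stood at 141 and 709 CPM in replicates 1 and 2 of leukemia 1, 982 and 816 CPM for leukemia 92, and 185 and 159 CPM in the pro-B libraries. Leukemia 1 replicate 1 thus lay below both pro-B libraries and the other 3 leukemia libraries far above them. The fitted log2 rise was 1.99 ± 0.43 (SE; edgeR, adjusted p = 0.048), a 3.97-fold difference. The call did not hold in 9 of 13 alternatives. Over all 13 the adjusted p ran from 2.7e-05 with DESeq2 to 0.30 without leukemia 1 replicate 2. It was 0.053 without leukemia 92 replicate 2 and 0.0504 with DESeq2's size factors. With all 6 libraries fitted separately the mean change was 1.85 (SE 0.69, adjusted p = 0.10).

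Fosb, a close relative of Fos that also needs a Jun partner, stood at 255 and 469 CPM for leukemia 1, 471 and 574 CPM for leukemia 92, and 83.6 and 94.2 CPM in pro-B cells. The lowest leukemia library was 2.71 times the highest pro-B library. Fosb rose 5.04-fold, a log2 change of 2.33 ± 0.25 (SE; adjusted p = 0.017). Its adjusted p stayed between 0.014 and 0.043 when any 1 leukemia library was left out.

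Fosl2, which encodes FRA2, was at 16.8 and 42.4 CPM for leukemia 1, 27.4 and 32.5 CPM for leukemia 92, and 5.48 and 13.0 CPM in pro-B cells. All leukemia libraries were above both pro-B libraries, but the pro-B libraries themselves differed by 1.24 on the log2 scale. The log2 change of 1.71 (SE 0.47) did not pass the test (adjusted p = 0.077), and it did with DESeq2 (adjusted p = 0.0036) and with the replicate number as a block in the fit of all 6 libraries (adjusted p = 0.033, against 0.078 in that fit without the block). Fosl1, which encodes FRA1, had 0 to 2 counts per library and was not tested; its level was under 3 counts in all 6 libraries, so no fold is given.

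None of the 3 Jun genes passed edgeR's test. Jun, the main partner of Fos, stood at 56.2 and 351 CPM for leukemia 1, 173 and 168 CPM for leukemia 92, and 300 and 252 CPM in pro-B cells. Its level was below both pro-B libraries in 3 leukemia libraries and above them in leukemia 1 replicate 2. The log2 change was -0.53 (SE 0.16, adjusted p = 0.094). The value was -0.06 without replicate 1 and -1.26 without replicate 2 (adjusted p = 0.93 and 0.23), while DESeq2 gave an adjusted p of 0.030.

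Junb, a Jun protein that often opposes JUN in growth control, was at 44.0 and 108 CPM for leukemia 1, 128 and 105 CPM for leukemia 92, and 40.4 and 60.8 CPM in pro-B cells. Leukemia 1 replicate 1 lay between the pro-B libraries and the other 3 leukemia libraries above them. The log2 change of 0.97 (SE 0.34) did not pass (adjusted p = 0.12, and 0.038 with DESeq2). Jund, the Jun gene least tied to stimulation, stood at 201 and 129 CPM for leukemia 1, 111 and 114 CPM for leukemia 92, and 71.7 and 77.1 CPM in pro-B cells. Every leukemia library was higher, and leukemia 1 replicate 1 was the highest. Its log2 change of 0.89 (SE 0.20) missed the threshold (adjusted p = 0.051), and it passed in 5 of 13 alternatives, such as without leukemia 92 replicate 1 (adjusted p = 0.047).

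Atf3 had the largest log2 change of the 8 members tested. It stood at 201 and 154 CPM for leukemia 1, 74.4 and 93.0 CPM for leukemia 92, and 6.26 and 11.7 CPM in pro-B cells, so the lowest leukemia library was 6.34 times the highest pro-B library. Atf3 rose 14.4-fold, a log2 change of 3.84 ± 0.54 (SE; adjusted p = 0.023). Leaving out any 1 leukemia library gave adjusted p values of 0.018 to 0.034. Batf was at 10.035 and 11.3 CPM for leukemia 1, 11.015 and 11.4 CPM for leukemia 92, and 3.85 and 4.87 CPM in pro-B cells. The 4 leukemia libraries were nearly level (10.9 ± 0.617 CPM, SD, n = 4 libraries), including both of leukemia 1. Batf rose by 1.33 (SE 0.27, adjusted p = 0.043), 2.52-fold, with adjusted p values of 0.053 and 0.062 without leukemia 1 replicates 1 and 2.

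No gene, members included, was called by edgeR when either pro-B library was left out, which leaves 1 control (4 and 5 of the 8 members had an unadjusted p under 0.05, against 16.2% of all genes each time). The lone control is then assumed to vary like the leukemias. The adjusted p was then 0.16 and 0.15 for Fosb, 0.16 and 0.15 for Atf3, 0.25 and 0.29 for Fos and 0.45 and 0.35 for Batf, without pro-B replicates 1 and 2. The direction of all 8 members was the same in every alternative run.

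**Figure D2:**
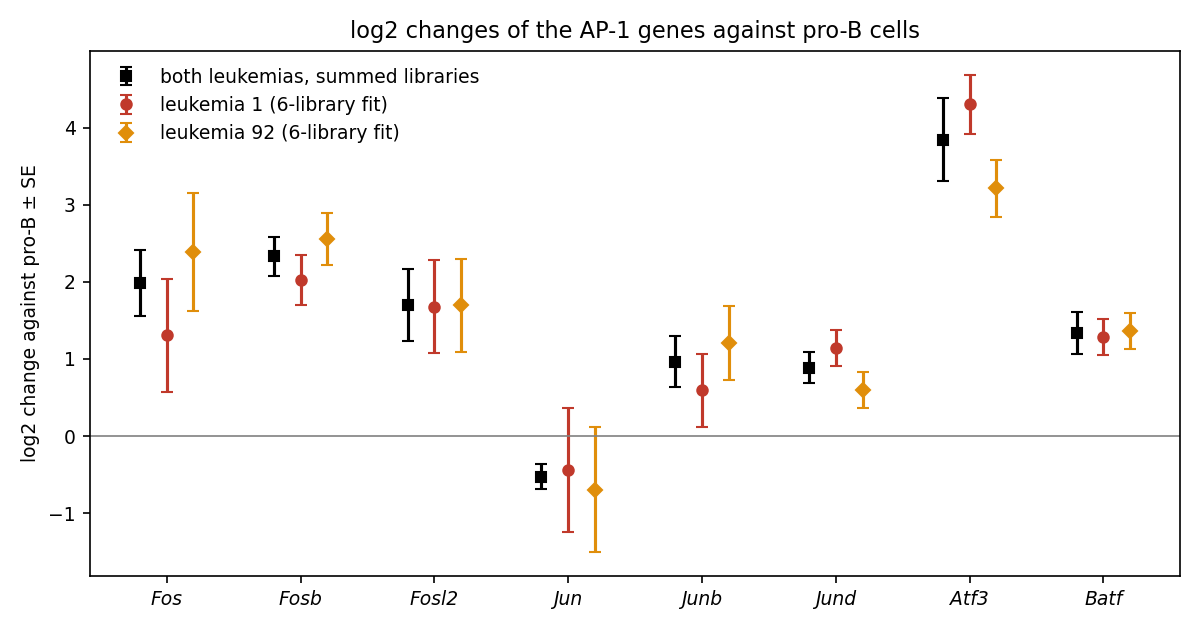
log2 change against pro-B cells with SE bars for 8 AP-1 genes: both leukemias with summed libraries (squares), leukemia 1 (circles) and leukemia 92 (diamonds) in the fit of 6 libraries. Atf3 is highest in each of the 3 series (3.84, 4.30 and 3.22), and Jun is the only gene whose points lie below 0.

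Setting each leukemia against the same 2 pro-B libraries in the fit of all 6 libraries gave values that share their controls. Atf3 was higher by 4.30 (SE 0.39) in leukemia 1 and by 3.22 (SE 0.37) in leukemia 92, Fosb by 2.03 (SE 0.33) and 2.56 (SE 0.33), and Batf by 1.29 (SE 0.23) and 1.36 (SE 0.23). These 3 passed in both leukemias, with adjusted p values of 0.0056 to 0.024. Jund passed in leukemia 1 (1.14, SE 0.23, adjusted p = 0.032) and not in leukemia 92 (0.60, SE 0.23, adjusted p = 0.11). Fos passed in neither, at 1.31 (SE 0.73, adjusted p = 0.27) and 2.39 (SE 0.76, adjusted p = 0.071). Genes called higher were 9.55% of 14979 for leukemia 1 and 14.7% for leukemia 92.

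The difference between the leukemias was tested directly. None of the 8 members passed between leukemia 92 and leukemia 1 (0 called by edgeR, 1 by DESeq2, 1 at an unadjusted p under 0.05), where edgeR called 3.09% of 14979 genes, 1.82% higher and 1.27% lower in leukemia 92. DESeq2 called 20.1% of genes, and 25.1% had an unadjusted p under 0.05. With edgeR 0 genes were called in this comparison with the replicate number as a block, in the 4 leukemia libraries alone, or without any 1 library of leukemia 92 or pro-B cells. The closest was Atf3, with a log2 difference of -1.08 (SE 0.34, adjusted p = 0.14): both libraries of leukemia 1 were above both of leukemia 92. DESeq2 called it (adjusted p = 0.025). Fos differed by 1.08 (SE 0.73, adjusted p = 0.41), Jund by -0.55 (SE 0.23, adjusted p = 0.23), Junb by 0.62 (SE 0.47), Fosb by 0.53 (SE 0.32), Jun by -0.26 (SE 0.81), Batf by 0.07 (SE 0.23) and Fosl2 by 0.01 (SE 0.59). Leaving out a library of leukemia 1 leaves that leukemia with 1 library, which is then assumed to vary as little as leukemia 92 and pro-B cells, although its own libraries differed more. In such fits 50.5% of genes were called without replicate 1 and 52.5% without replicate 2. Of the 8 members 1 was called in the first and 5 in the second, and the value of Jun went from -1.03 to 1.60.

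The 2 libraries of leukemia 1 differed in part of the family. Replicate 2 was 6.24 times replicate 1 for Jun, 5.01 times for Fos, 2.52 times for Fosl2 and 2.46 times for Junb, so 4 of 8 members were more than 2-fold higher there, against 17.5% of 15280 genes. Fosb stood at 1.84 times and Batf at 1.12 times. Jund and Atf3 went the other way, at 0.641 and 0.766 times. The corresponding log2 differences in leukemia 92 were between -0.28 and 0.32. These ratios compare single libraries and have no replicate check. Granulocyte and monocyte markers were also higher in replicate 2, by a median of 5.92 on the log2 scale with 19 of 20 more than 2-fold higher, and so were T and NK markers, 14 of 15 of them more than 2-fold. Their part in the AP-1 differences was not tested.

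**Figure D3:**
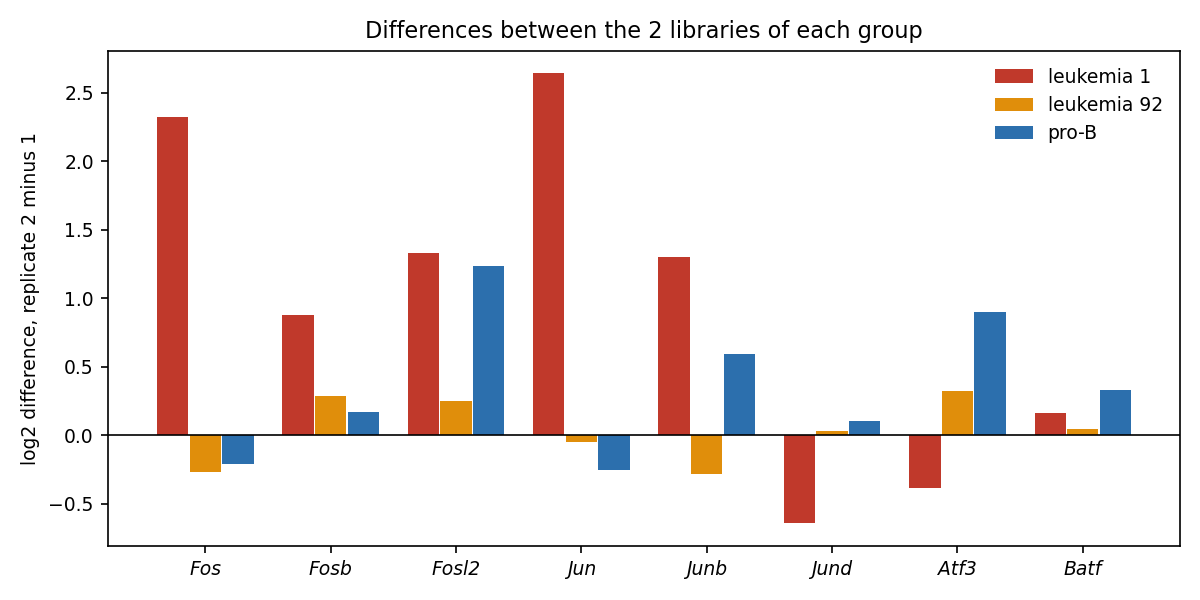
log2 difference between replicate 2 and replicate 1 within leukemia 1, leukemia 92 and pro-B cells for 8 AP-1 genes. Jun (2.64) and Fos (2.32) are far higher in replicate 2 of leukemia 1, while Jund (-0.64) and Atf3 (-0.38) are lower.

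Levels of different genes can be set side by side only per length, so counts were divided by the length of each member's exons in GENCODE M21, which may differ from the annotation the authors counted on. On this scale the 9 genes summed to 277 and 272 CPM per kb in the pro-B libraries and to 403, 797, 833 and 778 CPM per kb in leukemia 1 replicates 1 and 2 and leukemia 92 replicates 1 and 2. Jun held 34.0% and 29.0% of the sum in pro-B cells and 4.37%, 13.8%, 6.53% and 6.76% in the leukemia libraries. The 3 Jun genes together held 57.6% and 58.4% in pro-B cells against 40.2%, 31.0%, 23.1% and 23.0%. Only their share was lower. Their summed level was 159.5 and 158.7 CPM per kb in pro-B cells against 162.2, 247.2, 192.1 and 179.2 CPM per kb. The Fos genes held 39.9% and 37.7% in pro-B cells and 58.6%, 71.4% and 69.9% in 3 leukemia libraries, but 34.0% in leukemia 1 replicate 1. In that library Jund (29.8%) and Atf3 (23.1%) were the largest shares, while Fos (42.2% to 55.9%) was the largest in the other 3. Atf3 made up 1.05% and 2.005% in pro-B cells and 4.15% to 23.1% in leukemia.

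The ratio of Fos to Jun counts within a library needs neither a length nor a normalisation. It was 0.614 and 0.633 in the pro-B libraries, 2.52 and 2.02 in leukemia 1, and 5.66 and 4.86 in leukemia 92. Leukemia and pro-B libraries did not overlap in this ratio, nor in those of Jund, Junb and Atf3 to Jun given below. The libraries of leukemia 1 were alike in the Fos to Jun ratio although their Fos and Jun levels were not. How often gene pairs other than those given here separate the groups was not counted. Other ratios differed between replicates 1 and 2 of leukemia 1. Jund to Jun was 3.57 and 0.366 there, 0.643 and 0.678 in leukemia 92, and 0.239 and 0.307 in pro-B cells. Junb to Jun was 0.783 and 0.309, 0.739 and 0.628, and 0.134 and 0.242 in the same order. Fosb to Fos was 1.81 and 0.662, 0.479 and 0.704, and 0.453 and 0.592, so leukemia and pro-B libraries overlapped in that ratio. The ratio of Atf3 to Jun was 0.0208 and 0.0466 in pro-B cells, 3.57 and 0.438 in leukemia 1, and 0.429 and 0.554 in leukemia 92. These ratios were chosen after the values were seen and were not tested.

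**Figure D4:**
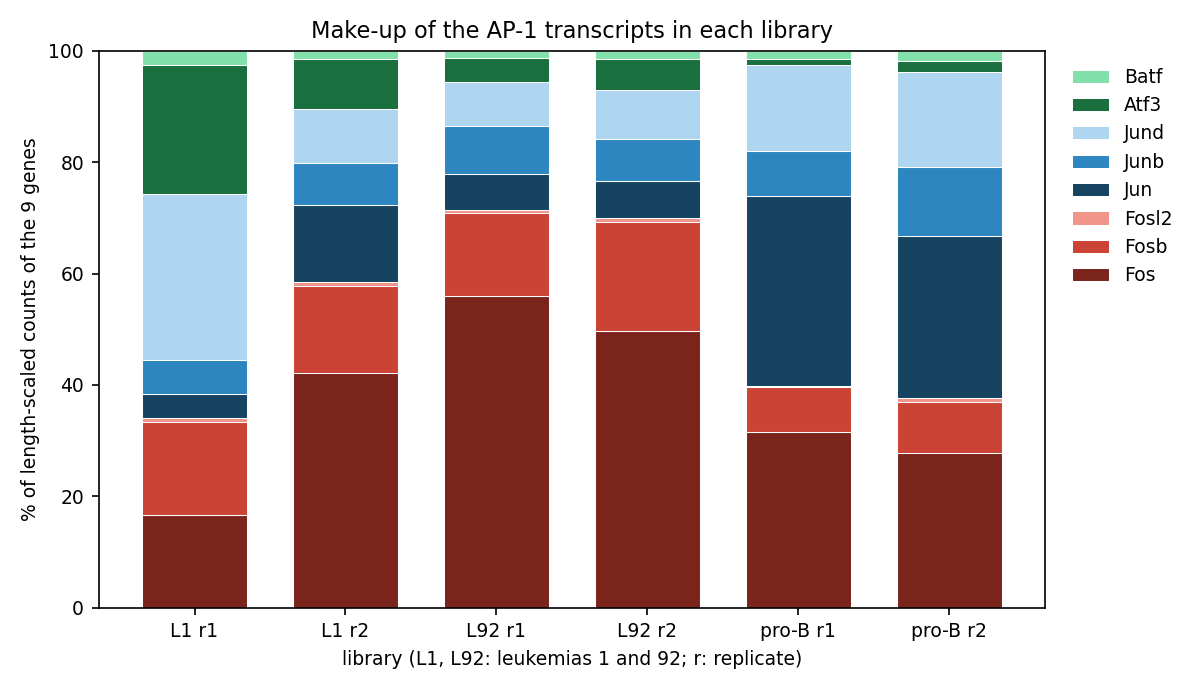
Share of each AP-1 gene in the length-scaled counts of the 9 genes, by library (Fosl1 is too low to show). The Jun genes (blue) fill 57.6% and 58.4% of the pro-B bars and 23.0% to 40.2% of the leukemia bars. Bars show shares only. The summed level of the Jun genes was 159.5 and 158.7 CPM per kb in pro-B cells and 162.2 to 247.2 CPM per kb in leukemia.

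Other basic leucine zipper genes can pair with AP-1 proteins or share their sites. Of the 28 with enough counts, 5 rose and 1 fell, against 9.54% and 10.7% of all genes. The other 22 did not pass, and the list's median log2 change was 0.55. Cebpb, a stress and inflammation factor of the C/EBP family, rose by 3.92 (20.0 ± 1.90 against 1.33 ± 0.102 CPM; SD, n = 4 and 2 libraries). Jdp2, a Jun dimerization protein that represses AP-1 sites, rose by 3.47 (SE 0.24, adjusted p = 0.010), standing at 22.003 to 37.0 CPM against 2.30 and 2.48 CPM. Mafg, a small Maf protein, rose by 1.75. Bach2, a B-cell repressor that competes at AP-1-like sites, fell, with a log2 change of -2.95 ± 0.26 (SE; adjusted p = 0.014), from 289 and 334 CPM to 27.1 to 68.0 CPM. Between the leukemias, Creb5 was higher by 4.46 (adjusted p = 0.047) and Atf4 lower by 1.02 in leukemia 92 (a log2 difference of -1.02, adjusted p = 0.040); like all calls between the leukemias, both were lost with the replicate block.

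Among kinases that act on AP-1, 27 of 31 did not pass (median log2 change of the list 0.27). While 2 rose and 2 fell, the shares of all genes were 9.54% and 10.7%. Mapk11, p38 beta, rose by 2.72 (adjusted p = 0.025), and Map2k3, a p38 activator, by 1.10 (adjusted p = 0.017). Map2k6, also a p38 activator, fell (log2 change -1.90, adjusted p = 0.016); leaving out replicate 1 or 2 of leukemia 1 gave 0.063 or 0.11 as the adjusted p. Map3k4 fell by 1.11 (adjusted p = 0.018). Mapk8 and Mapk9, which encode JNK1 and JNK2, were at -0.63 and -0.45 and did not pass (adjusted p = 0.054 and 0.067). Rps6ka1, the kinase RSK1 downstream of ERK, was higher by 1.11 in leukemia 92 than in leukemia 1 (adjusted p = 0.030), a call lost with the block and without any 1 library of leukemia 92 or pro-B cells.

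Among 15 regulators of AP-1 gene transcription, 3 rose and 0 fell, against 9.54% and 10.7% of all genes. The other 12 did not pass (median log2 change of the list 0.25). Without leukemia 1 replicate 1 only Mkl1 was still called. Mef2c, which binds the Jun promoter, rose by 1.85 (adjusted p = 0.0085, and 0.084 without that library), Stat3 by 1.49 (adjusted p = 0.011, and 0.070) and Mkl1, a coactivator of SRF, by 0.75 (adjusted p = 0.033). Srf itself stood at 63.7 to 74.0 CPM in leukemia against 49.0 and 52.9 CPM (log2 change 0.47, adjusted p = 0.070). Of 18 genes of AP-1 mRNA and protein turnover, 0 passed in edgeR, against 20.2% of all genes. An unadjusted p under 0.05 was found for 4, against 38.8% of all genes. With DESeq2 the count was 2 up and 3 down, against 15.3% and 15.9% of all genes. Zfp36, which sends the Fos and Jun messages to decay, was at 263 and 678 CPM for leukemia 1, 878 and 739 CPM for leukemia 92, and 315 and 316 CPM in pro-B cells, low in the same library as Fos (log2 change 1.05, adjusted p = 0.092).

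Textbook AP-1 target genes were taken as a further list. Of 40 in it 30 were tested, of which 17 rose and 0 fell, against 9.54% and 10.7% of all genes. The other 13 did not pass, and the list's median log2 change was 2.05. All 4 leukemia libraries were above both pro-B libraries for 20 of the 30, against 23.4% of all genes. The counts were 12 higher and 2 lower without leukemia 1 replicate 2, and 15 and 0 without replicate 1. Mt1, a metallothionein, rose by 5.49 (SE 0.19), from 1.41 and 1.64 CPM to 59.0 to 81.8 CPM. Tnf, the inflammatory cytokine, rose by 5.41 (SE 0.21), from 3.22 and 3.90 CPM to 133 to 200 CPM. Mmp9, a matrix protease whose promoter holds AP-1 sites, rose by 5.28 (adjusted p = 0.0065), standing at 12.7 and 409 CPM in leukemia 1 and 178 and 133 CPM for leukemia 92 against 4.74 and 4.99 CPM. It did not pass when leukemia 1 replicate 2 was left out (4.16, adjusted p = 0.12), where the granulocyte and monocyte markers were highest.

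Other targets were named after their values were seen, and all of those named here were higher in leukemia. Of the 30 tested, 26 had a positive log2 change and 13 did not pass. Vim, the intermediate filament vimentin, was at 1331 ± 94.2 CPM over the 4 leukemia libraries against 328 ± 1.57 CPM over the 2 of pro-B cells (SD). Cd69, a lymphocyte activation antigen, was at 646 ± 98.3 against 237 ± 8.33 CPM. Plaur, the urokinase receptor, was at 84.9 ± 21.3 against 13.1 ± 2.52 CPM. Plau and Ccnd1, urokinase and cyclin D1, rose by 6.14 and 1.99 and were also higher in leukemia 92 than in leukemia 1, by 0.996 and 0.962 (adjusted p = 0.043 and 0.046; not called with the replicate block). Myeloid cells also express many of these genes. Of the 20 granulocyte and monocyte markers, 4 rose (Csf1r, Fcgr3, Itgam and Lyz2), against 9.54% of all genes, and 16 did not pass. In all 4 leukemia libraries 6 were above both pro-B libraries, against 23.4% of all genes. Csf1r was at 138 to 463 CPM in leukemia, while the granule gene Ltf was at 11.01 CPM in leukemia 1 replicate 1 and 1504 CPM in its replicate 2, against 57.5 and 60.1 CPM in pro-B cells. Their part in the target levels was not tested.

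Of early response genes outside AP-1, 12 of 33 were higher and 0 lower, against 9.54% and 10.7% of all genes. The other 21 did not pass (median log2 change of the list 1.20). The number higher was 8 when either library of leukemia 1 was left out. Egr1, the ERK-induced zinc finger factor, rose by 3.25 (355 to 803 CPM against 68.5 and 72.3 CPM), and Ier2, an early response regulator, by 1.71. Between the leukemias, 3 of 33 were lower in leukemia 92: Gadd45b (log2 difference -2.49), Nfkbia, the NF-kappaB inhibitor (-1.21), and Arc (-3.71), with adjusted p values of 0.027 to 0.047. These 3 calls, too, were lost with the block and in the 4 leukemia libraries alone. Klf2 rose by 2.22 with all libraries and was at 1.502 (adjusted p = 0.32) without leukemia 1 replicate 2. Of 14 heat shock genes, chaperones induced by stress, 1 was higher and 1 lower, against 9.54% and 10.7% of all genes. The other 12 did not pass (median log2 change of the list -0.20). Hspa1a rose by 3.90 (adjusted p = 0.048, and 0.072 without leukemia 1 replicate 1) and Hspa4l fell by 1.91. Dnajb1 was lower in leukemia 92 than in leukemia 1 (-0.97, adjusted p = 0.048; not called with the block).

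**Figure D5:**
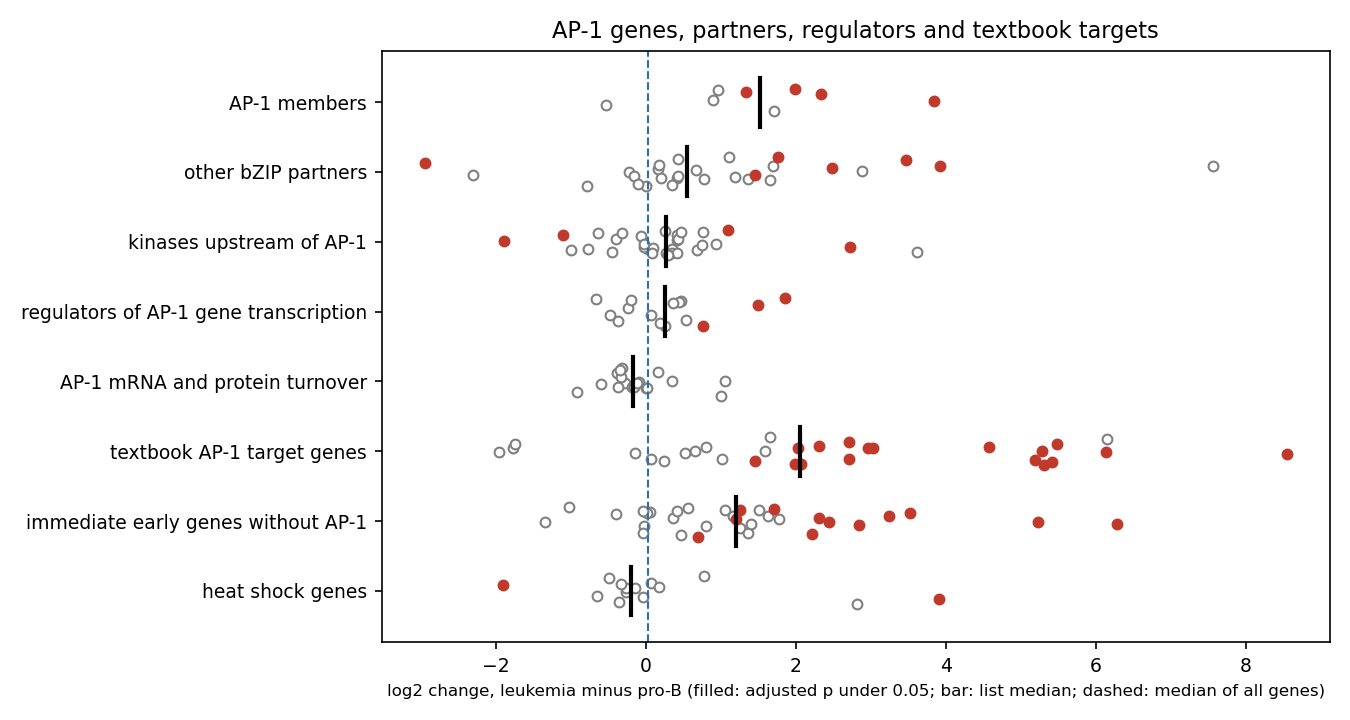
log2 change of leukemia against pro-B cells for the AP-1 genes and 7 related lists; each point is a gene, filled points passed the test, bars are list medians and the dashed line is the median of all genes. AP-1 members (median 1.52) and textbook targets (2.05) lie to the right of kinases (0.27) and turnover genes (-0.17).

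For each of the 8 tested members the most alike genes over the 6 libraries were found by the root mean square difference of centred log2 CPM, among 9481 genes of at least 5 CPM. Atf3 was nearest to Pmaip1, the death gene NOXA (0.17), and Dusp4, an ERK phosphatase (0.24). Jund was nearest to Tmem50b (0.039) and Rab27a (0.077), Batf to Gngt2 (0.10) and Bcap29 (0.11), and Fosb to Anxa9 (0.14) and Tmsb4x (0.16). Junb was nearest to H2-DMb1 (0.12) and Fcer1g (0.14), and Jun to Flot2 (0.19) and BC026585 (0.20). Fos and Fosl2 had less close neighbours: Asb2 (0.29) and Pak1 (0.29) for Fos, and Tcp11l1 (0.30) and Cyba (0.31) for Fosl2. Pmaip1 shared with Atf3 the order leukemia 1 over leukemia 92 over pro-B cells, at 453 and 245, 153 and 154, and 11.9 and 20.8 CPM. The shared order follows from choosing Pmaip1 by likeness over the same libraries.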

How the data were processed

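RNA was extracted with RNeasy kits and libraries were made with TruSeq RNA kits, per the labels' protocols. The authors deposited whole-number read counts per gene and library. STAR 2.4, HTSeq 0.6.1, DESeq2 and mm9 are listed, per the submitters' processing notes, without role or order. Neither gene annotation nor strandedness is given in the sources used here; reads of overlapping antisense genes cannot be told apart. Entries that name no gene (34.0% to 39.6% of a library's entries) were left out.

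Leukemia was compared with pro-B cells on counts summed per leukemia, and leukemia 92 with leukemia 1 in a fit of the 6 libraries with a term for each group. The tests were run with edgeR 4.0.16 (R 4.3.3), filterByExpr (minimum count 10), TMM and the robust quasi-likelihood test, adjusted over all genes tested and called at an adjusted p under 0.05. Standard errors came from the F statistic. DESeq2 1.42.0 and 12 further settings were tried for the first comparison. The code was tested on simulated data. CPM on the log2 scale used a prior count of 2.

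The members and gene lists were chosen with earlier results of these data known. Named genes are the 9 members, up to 3 called genes per direction with the smallest p of each other list, and the 2 genes nearest to each member. All 288 list entries matched a symbol. Other names were chosen after their values were seen.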

Additional observations from a re-analysis of the deposited data

How the results depend on the processing

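Over the 13 alternatives, the AP-1 genes called in leukemia against pro-B cells numbered 4 with all libraries, 0 to 5 when 1 library was left out (2 without leukemia 1 replicate 2, 0 without either pro-B library) and 8 with DESeq2. Over all genes the calls went from 3089 to between 0 and 3244 with 1 library left out, 4712 with the mean of both leukemias in the fit of all 6 libraries, 4696 for leukemia 92 alone and 4769 with DESeq2. Between the leukemias 463 genes were called, and 0 to 8133 with 1 library left out: 7975 and 8133 without leukemia 1 replicates 1 and 2, and 0 without any 1 of the other libraries (1552 to 2303 at an unadjusted p under 0.05). DESeq2 called 2667, and the 4 leukemia libraries alone gave 0 (2366). Called AP-1 genes went from 0 to between 0 and 5 with 1 library left out and were 1 with DESeq2. The cause was not tested.

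The replicate number shared by the groups was tried as a block. Deviations of the same-numbered libraries correlated at -0.10, 0.08 and -0.03. With 2 libraries per group these values cannot show whether the number marks a shared batch, and the labels name none. With the replicate block 0 genes differed between the leukemias (3042 at an unadjusted p under 0.05), and with crossed numbers, an alternative added after seeing the data, also 0 (3074). Against pro-B cells the block gave 3373 calls and 4 AP-1 genes, against 4712 and 4 in the same fit without it: Fosl2 was gained and Jund lost.

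Of the single members' values against pro-B cells, 78 stayed on their side of the threshold, 9 gained a call, 17 lost it and 0 changed direction. Between the leukemias 77 stayed, 6 gained a call in the same direction and 5 changed direction, 1 of them also gaining a call (Jun at 1.60): Fosl2 was at -0.50 without leukemia 1 replicate 1, -0.09 without leukemia 92 replicate 2 and -0.0017 in the 4 leukemia libraries alone (0.83 without leukemia 1 replicate 2), and Jun at 1.60 without leukemia 1 replicate 2 and 0.028 with the replicate block (-1.03 without leukemia 1 replicate 1). Counting depth limited only Fosl1, which had at most 2 counts.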
